A study of Danio rerio with 6 samples.

Results

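The genes described here make sterols and fatty acids, or control the cells' supply of them. They were chosen by name, in all 6 samples, from a list of which 33 symbols were analysed here, and 25 of the 33 matched a symbol in the table that pairs gene identifiers with names. The matches gave 26 rows of the 32469 gene rows, because 2 rows carry the symbol SQLE. The symbols hmgcs1, mvd, fdft1, cyp51, nsdhl, dhcr7, insig2 and stard4 matched no row and were not analysed here. All 26 rows held counts, and 25 had enough of them for the test.

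The samples were cells from the heads of OMP-Gal4;UAS-GCaMP1.6 zebrafish larvae at 5 days post fertilization, collected by green fluorescence as olfactory sensory neurons. In the 3 gallein samples, 100 µM gallein was given from a start at 16 to 20 hours post fertilization and renewed every 24 hours. Gallein is a small molecule that blocks signalling by the G protein beta-gamma dimer. The 3 control samples had the solvent DMSO on the same schedule, and both groups carried the same transgenes, in which the promoter of an olfactory marker gene drives a calcium sensor. Poly(A) RNA was sequenced, and gene counts per sample ran from 30822664 to 40295728. The labels call the samples biological replicates and say nothing of how many larvae went into each. The comparison asks how these transcripts stood in gallein samples relative to controls.

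Cells build cholesterol from acetyl-CoA in a long chain of enzymes. The mevalonate arm makes isoprenoid units, and the sterol arm joins them into squalene, closes its rings and trims the product. Fatty acid synthesis starts from the same acetyl-CoA. In vertebrates both routes are driven by sterol regulatory element-binding proteins (SREBPs), which are membrane-bound transcription factors. The escort SCAP carries them to the Golgi for cleavage when sterol is scarce, and INSIG proteins hold them back when sterol is plentiful. Olfactory neurons carry long cilia and axons, and so hold much membrane.

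Gallein replicate 2 stood apart from the other 5 libraries. Mitochondrial transcripts took 8.86% of its gene counts, where the others held 31.7% to 40.5%, and 22.3% of its reads were not uniquely placed, against 9.55% to 16.1%. Of 8 marker genes of mature ciliated olfactory neurons, 3 had no reads in it, and none was at 0 in any other library. The main values that rest on it are given with and without it.

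No member passed the threshold. In the test of gallein against control by edgeR, 0 of the 25 tested members had an adjusted p under 0.05 in either direction, where the share among all 18271 genes tested was 0% higher and 0% lower. At an unadjusted p under 0.05 there was 1 member, SQLE, against 6.5% of all genes tested. The DESeq2 Wald test called that same member lower, against 0.226% of all genes lower and 0.313% higher. By edgeR, 13 members had a positive and 12 a negative log2 fold change, with a median of 0.02, and the median over all genes tested was 0.07. Without gallein replicate 2 the medians were 0.18 over members and -0.04 over all genes. In 3 members, SCD, ELOVL6 and MSMO1, all gallein samples lay below all controls, where the background share was 5.22%. In 0 members did they lie above, where the background share was 3.81%. Levels below are TMM-scaled CPM (counts per 1000000 gene counts), which are not per gene length, so levels of different genes are not compared.

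**Figure D1:**
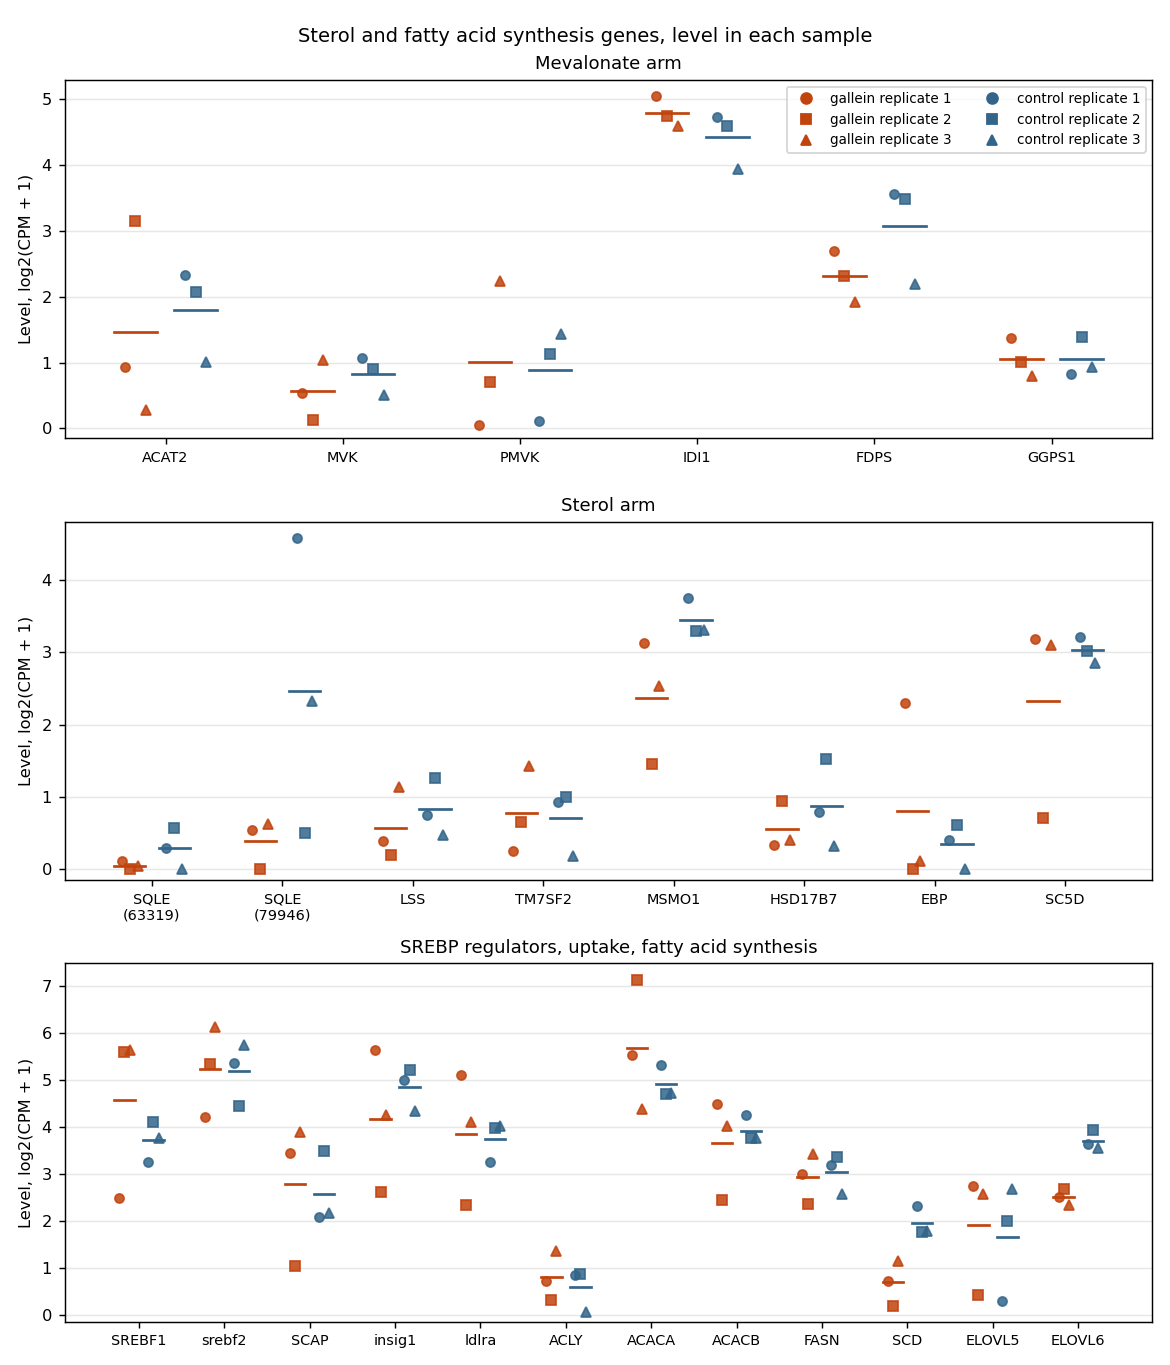
Level of each of the 26 member rows as log2(CPM + 1), with 1 point per sample, the 3 gallein samples left of the 3 controls and a bar at each group's mean. Gallein replicate 2 (square) stands far from the other gallein samples at ACACA, insig1, ldlra and SC5D, while the groups separate only at MSMO1, SCD and ELOVL6. Heights of different genes are not comparable, since CPM is not per length.

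The fatty acid genes SCD and ELOVL6 gave the clearest separation between the groups. ELOVL6 (ENSDARG00000004402) encodes the elongase that lengthens saturated and monounsaturated fatty acids of palmitate size. Its level was 4.68, 5.44 and 4.04 CPM in gallein replicates 1 to 3 and 11.4, 14.2 and 10.8 CPM in control replicates 1 to 3. The replicates lay close together in both groups, and the lowest control stood well above the highest gallein sample. The means were 4.72 ± 0.701 CPM in gallein and 12.1 ± 1.85 CPM in controls (SD, n = 3 each). The log2 fold change was -1.36 ± 0.68 (SE), with a 95% interval from -2.86 to 0.14, and edgeR's adjusted p was 0.779. With each library left out in turn it ran from -1.47 to -1.23.

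SCD (ENSDARG00000033662) encodes stearoyl-CoA desaturase, which puts the double bond into monounsaturated fatty acids. It stood at 0.647, 0.145 and 1.22 CPM in gallein samples, against 3.98, 2.41 and 2.47 CPM in controls. Counts behind these levels were few, at 17, 3 and 45 in gallein and 158, 141 and 107 in controls. All gallein samples were below the lowest control, with gallein replicate 2 the lowest of all. The log2 fold change was -2.12 ± 1.1 (SE), with a 95% interval from -4.55 to 0.31 and an adjusted p of 0.779 in edgeR, and it was -1.65 without gallein replicate 2. The table also names a desaturase gene scdb (ENSDARG00000030265), which is not among the 33 symbols. It stood at 23.7, 11.1 and 55.1 CPM in gallein and 37.8, 29.0 and 29.2 CPM in controls. Those groups overlapped, and its log2 fold change was -0.09 (edgeR adjusted p = 0.993). Counted within each library, SCD had 0.0272, 0.0130 and 0.0222 reads per scdb read in gallein and 0.105, 0.0832 and 0.0845 in controls. This pair was chosen after both genes were seen, so the ratio describes the separation of SCD again and does not support it. The sequences of SCD and scdb were not compared. Any reads shared between them could have been dropped or split, so the values of this pair are uncertain.

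The other fatty acid enzymes did not separate. FASN (ENSDARG00000087657), fatty acid synthase itself, stood at 7.0, 4.09 and 9.77 CPM in gallein and 8.11, 9.26 and 4.96 CPM in controls, with a log2 fold change of -0.10 and a 95% interval from -1.71 to 1.52. Its group means were 6.96 ± 2.84 CPM in gallein and 7.44 ± 2.23 CPM in controls.

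Acetyl-CoA carboxylase makes the malonyl-CoA that fatty acid synthase extends. ACACA (ENSDARG00000078512), which encodes the cytosolic form, stood at 45.0, 139 and 19.7 CPM in gallein and 38.7, 25.1 and 25.3 CPM in controls. One sample, gallein replicate 2, was far above the rest, gallein replicate 3 was the lowest of all 6, and the groups overlapped. The log2 fold change was 1.19 ± 0.83 (SE, edgeR adjusted p = 0.824), and it was 0.12 without gallein replicate 2. ACACB (ENSDARG00000061994), the form at the mitochondrial membrane, went the other way in that library, at 21.4, 4.43 and 15.2 CPM in gallein and 18.0, 12.6 and 12.5 CPM in controls. The reads of ACACA per ACACB read were 2.10, 31.4 and 1.30 in gallein, against 2.15, 1.99 and 2.02 in controls. Gallein replicate 2 was above and gallein replicate 3 below all controls in this ratio, which was chosen after both genes were seen.

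ACLY (ENSDARG00000055652), the citrate lyase that supplies cytosolic acetyl-CoA, was low throughout, at 0.647, 0.241 and 1.57 CPM in gallein and 0.806, 0.839 and 0.0461 CPM in controls. ELOVL5 (ENSDARG00000004979), an elongase of polyunsaturated fatty acids, ranged from 0.337 to 5.67 CPM in gallein and from 0.227 to 5.37 CPM in controls. Neither gene separated the groups, with log2 fold changes of 0.55 for ACLY and 0.35 for ELOVL5. That of ACLY turned to -0.34 without gallein replicate 3, and that of ELOVL5 ran from -0.19 without control replicate 1 to 1.17 without control replicate 3. Over the 7 fatty acid genes, 3 fold changes were positive and 4 negative.

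**Figure D2:**
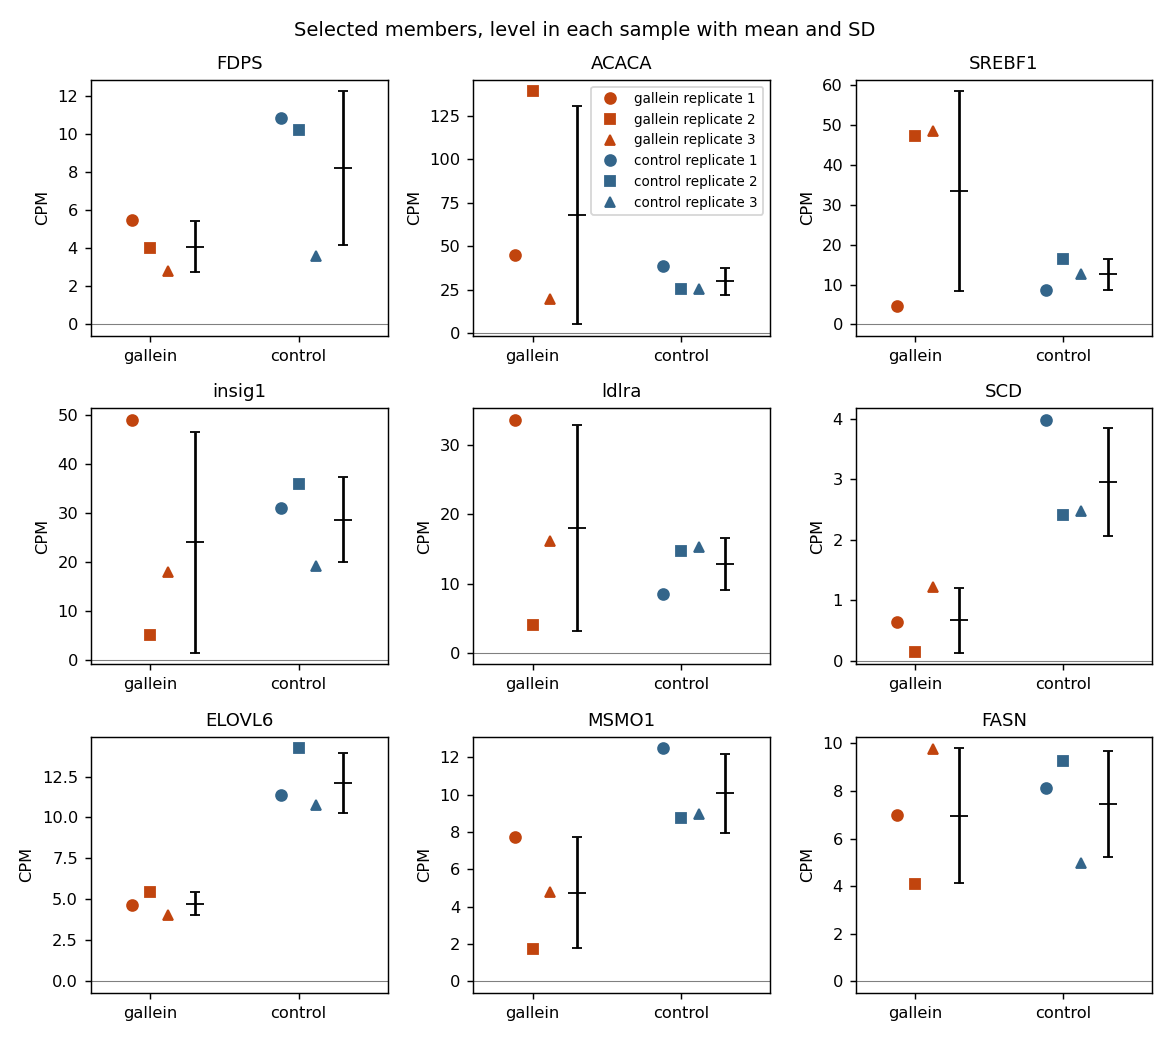
CPM of 9 members in each sample, the 3 gallein samples left of the 3 controls, with mean and SD (n = 3) as a bar beside each group. SCD, ELOVL6 and MSMO1 have every gallein sample below every control, FASN overlaps, and gallein replicate 2 is the highest sample for ACACA (139 CPM) and the lowest for insig1 (5.15 CPM) and ldlra (4.05 CPM).

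In the mevalonate arm the groups overlapped for all 6 tested genes, and 4 of the 6 fold changes were positive. Farnesyl diphosphate synthase, the branch point towards sterols and prenylated proteins, is encoded by FDPS (ENSDARG00000040890). It stood at 5.48, 4.0 and 2.80 CPM in gallein and 10.9, 10.2 and 3.57 CPM in controls. Control replicates 1 and 2 were above every gallein sample and control replicate 3 was within their range. Its log2 fold change was -1.01 ± 0.79 (SE, edgeR adjusted p = 0.837), with a 95% interval from -2.74 to 0.73. IDI1 (ENSDARG00000019976), the isomerase that readies isoprenoid units for joining, was the steadiest gene of the arm, at 32.1, 26 and 23.1 CPM in gallein and 25.7, 23.1 and 14.3 CPM in controls. Its log2 fold change was 0.36, with a 95% interval from -1.06 to 1.78.

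Single libraries set the values of several genes that were low. ACAT2 (ENSDARG00000007127), a thiolase at the entry of the arm, stood at 0.913, 7.90 and 0.217 CPM in gallein and 4.0, 3.18 and 1.01 CPM in controls. Its log2 fold change of 0.13 became -2.28 without gallein replicate 2. The kinase gene PMVK (ENSDARG00000070798) stood at 0.0380, 0.626 and 3.75 CPM in gallein and 0.0756, 1.20 and 1.71 CPM in controls, and its log2 fold change of 0.57 became -1.59 without gallein replicate 3. MVK (ENSDARG00000004130), the kinase one step earlier, stood at 0.457, 0.0963 and 1.06 CPM in gallein and 1.11, 0.873 and 0.415 CPM in controls. GGPS1 (ENSDARG00000023627), which makes the geranylgeranyl group for protein anchors such as those on G protein gamma subunits, ranged from 0.733 to 1.6 CPM in gallein and from 0.781 to 1.61 CPM in controls. Its log2 fold change was 0.02, with a 95% interval from -2.35 to 2.39.

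In the sterol arm 5 of 7 tested genes had a negative fold change, and 1 of them, MSMO1, separated the groups. MSMO1 (ENSDARG00000055876) encodes an oxidase that takes part in the removal of methyl groups from the sterol ring. It stood at 7.72, 1.73 and 4.80 CPM in gallein and 12.5, 8.78 and 8.94 CPM in controls. The gap between the highest gallein sample and the lowest control was narrow, and with the counts of only the first deposited file of each sample the groups overlapped. The log2 fold change was -1.08 ± 0.78 (SE, edgeR adjusted p = 0.828), with a 95% interval from -2.81 to 0.65, and it was -0.68 without gallein replicate 2.

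Squalene epoxidase, the first oxygen-dependent step of the arm, carries the symbol SQLE in 2 rows. The SQLE row ENSDARG00000079946 stood at 0.457, 0 and 0.543 CPM in gallein and 22.9, 0.411 and 4.01 CPM in controls. In counts that was 12, 0 and 20 in gallein, against 909, 24 and 174 in controls. Control replicate 1 held most of the reads, and control replicate 2 lay within the gallein range. A count of 0 in gallein replicate 2 allows a level of up to 0.145 CPM, a limit that covers counting error only. The log2 fold change was -4.73 ± 1.61 (SE), with an unadjusted p of 0.0142 and an adjusted p of 0.756 by edgeR and an adjusted p of 0.0497 by DESeq2. Without control replicate 1 it was -2.70. The other SQLE row, ENSDARG00000063319, had too few counts for the test, at 2, 0 and 1 in gallein and 9, 28 and 0 in controls.

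Marker genes of other cells also stood at unlike levels in these libraries. The liver and yolk markers, a list mostly of secreted plasma protein genes, summed to 480.5, 15.5 and 221 CPM in gallein and 1444, 305 and 451 CPM in controls. Control replicate 1 was the highest there, as for SQLE, SCD and MSMO1 but not ELOVL6. It was also the highest for summed skin markers (10244 CPM) and skeletal muscle markers (3684 CPM). In that library tfa (32431 reads) and apoa2 (14231 reads) held most of the liver and yolk sum. There krt91 (239166 reads) and krt8 (86303 reads) held most of the skin sum. Other genes had most reads elsewhere, such as apobb.1 and FGG in control replicate 3 and krt5 and krt17 in gallein replicate 1. In the muscle list, TNNC2 and myhz1.1 had most reads in control replicate 2. Of the 11 tested liver and yolk genes 10 had a negative fold change, with a median of -1.50, or -1.05 without gallein replicate 2. In 2 of the 11, all gallein samples lay below all controls. Of 13 rows 1, vtg1, was at 0 in every sample. The markers of mature ciliated olfactory neurons had 8 of 8 fold changes negative, with a median of -1.66, or -1.09 without gallein replicate 2. In 4 of the 8, all gallein samples lay below all controls. The share over all genes tested was 5.22%. One gene, GNG13, held most of their reads, at 198, 139 and 86.7 CPM in gallein and 186, 86.9 and 2158 CPM in controls. All 8 summed to 224, 155 and 124 CPM in gallein and 246, 145 and 2218 CPM in controls, and the groups overlapped. The other 7 summed to 26.1, 16.3 and 37.6 CPM in gallein and 60.3, 58.2 and 60.3 CPM in controls, and those groups did not overlap. GNG13 was set apart after its values were seen. OMP (ENSDARG00000032380), the marker behind the sort, stood at 4.79, 0.193 and 4.99 CPM in gallein and 13.4, 6.97 and 7.81 CPM in controls. The part of either marker group in the levels of SCD, ELOVL6, MSMO1 and SQLE was not tested. Fewer cells of a type and less RNA per cell cannot be told apart in such pooled samples.

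The remaining sterol genes were low or uneven. SC5D (ENSDARG00000044642), a late desaturase of the ring, was at 8.10, 0.626 and 7.54 CPM in gallein and 8.29, 7.12 and 6.22 CPM in controls. Only gallein replicate 2 was away from the rest, and the log2 fold change of -0.41 became 0.12 without it. EBP (ENSDARG00000046098), the sterol isomerase, stood at 3.92, 0 and 0.0814 CPM in gallein and 0.327, 0.531 and 0 CPM in controls. Its log2 fold change of 2.20 rested on gallein replicate 1 and was -2.60 without that library. HSD17B7 (ENSDARG00000088140), a ketosteroid reductase, was at 0.266, 0.915 and 0.326 CPM in gallein and 0.730, 1.87 and 0.254 CPM in controls. LSS (ENSDARG00000061274), which closes the sterol rings, and TM7SF2 (ENSDARG00000032816), a sterol reductase, stayed under 2 CPM in all samples, with log2 fold changes of -0.58 for LSS and 0.27 for TM7SF2. With each library left out in turn these ran from -1.86 to 0.04 for LSS, which was -0.13 without gallein replicate 2, and from -0.83 to 0.74 for TM7SF2.

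**Figure D3:**
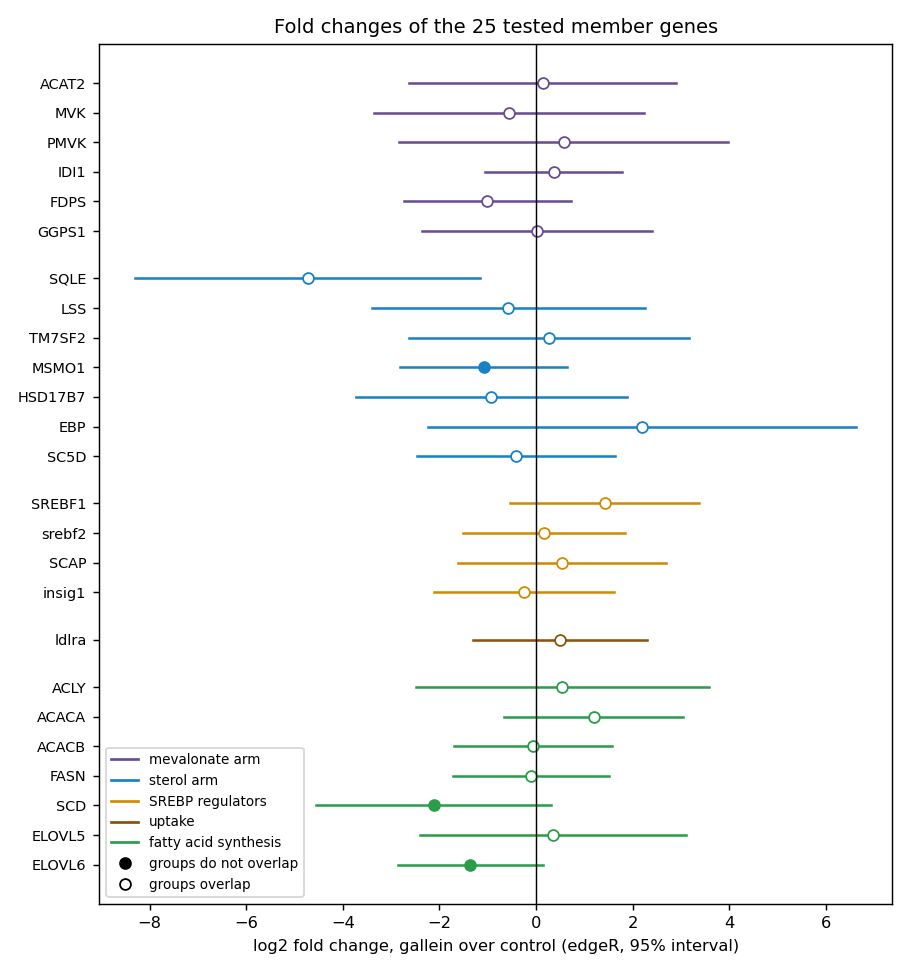
edgeR log2 fold change of gallein over control for the 25 tested members, by role, with 95% intervals. Filled points mark SCD, ELOVL6 and MSMO1, whose groups do not overlap, and the interval leaves out 0 only for SQLE, whose adjusted p was 0.756.

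Among the SREBP regulators, SREBF1 had the fold change farthest from 0. SREBF1 (ENSDARG00000067607), the SREBP gene tied mainly to fatty acid synthesis in mammals, stood at 4.57, 47.4 and 48.5 CPM in gallein and 8.59, 16.3 and 12.7 CPM in controls. Gallein replicates 2 and 3 were above every control, and gallein replicate 1 was below every one. For SREBF1 the log2 fold change was 1.42 ± 0.88 (SE, edgeR adjusted p = 0.799), and it ran from 1.05 to 1.93 with each library left out in turn. Under spike-in scaling, described below, it was -0.29. srebf2 (ENSDARG00000063438), tied mainly to sterol synthesis in mammals, stood at 17.5, 39.6 and 69.3 CPM in gallein and 40.1, 20.8 and 52.2 CPM in controls, with a log2 fold change of 0.16 and a 95% interval from -1.51 to 1.83.

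The retention gene insig1 (ENSDARG00000010658), itself an SREBP target in mammals, was at 48.9, 5.15 and 18.0 CPM in gallein and 30.9, 35.9 and 19.2 CPM in controls. SCAP (ENSDARG00000018096), the escort gene, was at 9.89, 1.06 and 13.8 CPM in gallein and 3.22, 10.3 and 3.48 CPM in controls. The groups overlapped for both, with log2 fold changes of -0.25 for insig1 and 0.54 for SCAP. Without gallein replicate 2 these were 0.23 for insig1 and 1.07 for SCAP. SCAP stood at -0.05 without gallein replicate 3 and insig1 at -1.30 without gallein replicate 1. The receptor gene ldlra (ENSDARG00000029476), through which cells take up lipoprotein cholesterol, stood at 33.6, 4.05 and 16.2 CPM in gallein and 8.51, 14.7 and 15.2 CPM in controls. Gallein replicate 1 was its highest and gallein replicate 2 its lowest sample, as for insig1, and its log2 fold change was 0.49 with a 95% interval from -1.32 to 2.29. It turned to -0.34 without gallein replicate 1 and was 0.96 without gallein replicate 2.

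Summed over all 26 rows, the level was 261, 295 and 270.2 CPM in gallein and 262, 227 and 206 CPM in controls. Gallein replicate 1 lay just below control replicate 1, so the groups overlapped. The difference of the groups' mean log2 sums was 0.25 (p = 0.2 by a two-sided exact permutation test, or 0.6 adjusted over 6 sums, where 3 samples against 3 allow no p below 0.1). ACACA alone made up 47.2% of the sum in gallein replicate 2, against 17.2% and 7.3% in gallein replicates 1 and 3 and 11.0% to 14.8% in controls. Without ACACA the sums were 216, 156 and 250 CPM in gallein and 223, 202 and 181 CPM in controls. The sterol arm summed to 21.0, 4.0 and 16.2 CPM in gallein and 46.5, 21.6 and 20.0 CPM in controls, a log2 difference of -1.29 (exact permutation p = 0.2, 0.6 adjusted). Gallein replicate 1 overlapped with the controls there, and without gallein replicate 2 the difference was -0.56. In control replicate 1 a single SQLE row, ENSDARG00000079946, held 22.9 of the 46.5 CPM. The mevalonate arm, the SREBP regulators and fatty acid synthesis had log2 differences of 0.15, 0.30 and 0.38, with exact permutation p from 0.4 to 0.9. That of fatty acid synthesis was -0.0047 without gallein replicate 2. Uptake was ldlra alone, and its difference of mean log2 levels was 0.07, smaller than its edgeR fold change.

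With gallein replicate 2 included, the members varied more among gallein samples than among controls. Across the members with reads in all 3 samples of a group, the median ratio of highest to lowest sample was 8.26 in gallein (23 members) and 2.29 in controls (24 members). The same ratio over all genes tested was 5.13 in gallein and 2.95 in controls. These ratios were not computed without gallein replicate 2, so the gallein ratios describe these 3 samples only. Gallein replicate 2 was counted as the lowest of the 6 samples for 12 of 25 members (48.0%), and for 30.6% of all genes tested. A tie counted for the first library in order, gallein before control. EBP, at 0 in control replicate 3 as well, is among the 12. Erythroid markers summed to 226 CPM in gallein replicate 2, against 54.1 and 4.23 CPM in gallein replicates 1 and 3 and 6.57 to 36.6 CPM in controls. Within that list, alas2 and the SLC4A1 row ENSDARG00000024560 had most reads in gallein replicate 1. Brain neuron and glia markers also had their highest sum in gallein replicate 2, at 897 CPM against 229 to 487 CPM in the others. SYT1 (9247 reads) and the FABP7 row ENSDARG00000007697 (6550 reads) held most of that sum. Other genes of the list went the other way. ELAVL3 had 296 reads there and 9219 in gallein replicate 3. The SNAP25 row ENSDARG00000020609, mbpa, plp1b and SLC1A2 were lowest in gallein replicate 2. Sums of the other listed cell types were highest in other libraries. The part of these markers in the ACACA levels was not tested.

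Other genes of the same pathways were taken from a separate list, of which 63 of 70 rows were tested. Of these, 32 had a positive and 31 a negative fold change, with a median of 0.02 and 0 past the threshold. In 3 of them, LBR, NFYB and ABCA1, all gallein samples lay above all controls, and in 0 below. These shares, 4.76% above and 0% below, stand beside 3.81% above and 5.22% below over all genes tested, so the count above is near the background. LBR (ENSDARG00000014013), a sterol reductase of the nuclear envelope, stood at 103, 50.9 and 35.8 CPM in gallein and 28.0, 30.3 and 25.0 CPM in controls (log2 fold change 1.19, or 0.64 without gallein replicate 1, edgeR adjusted p = 0.790). ABCA1 (ENSDARG00000074635), a cholesterol exporter, stood at 109, 69.5 and 97.8 CPM in gallein and 67.5, 68.7 and 68.3 CPM in controls (log2 fold change 0.43, or 0.29 without gallein replicate 1, edgeR adjusted p = 0.942). The controls were nearly identical for it, and gallein replicate 2 was only just above them. NFYB (ENSDARG00000039185), a subunit of a factor that binds promoters beside SREBPs in mammals, had 0.533, 5.59 and 1.49 CPM in gallein and 0.353, 0.411 and 0.392 CPM in controls, with a log2 fold change of 2.71, or 1.39 without gallein replicate 2.

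Several large differences on that list rested on 1 library each. ELOVL2 (ENSDARG00000045414), an elongase of long polyunsaturated fatty acids, stood at 2.17, 4.96 and 0.977 CPM in gallein and 66.5, 2.40 and 1.45 CPM in controls, and its log2 fold change of -3.12 was 0.52 without control replicate 1. For ELOVL7 (ENSDARG00000069279) gallein replicate 1 had 179 CPM where the others had 2.93 to 10.1 CPM. ME1 (ENSDARG00000053215), the malic enzyme that supplies NADPH for synthesis, had 110 CPM in gallein replicate 3 where the others had 0.626 to 3.95 CPM. SOAT1 (ENSDARG00000062297), which esterifies cholesterol, had 15.3 CPM in control replicate 2 where the others had 0.571 to 2.75 CPM. The transcription factor gene SP1 (ENSDARG00000088347) was at 33.9 CPM in gallein replicate 2, with a log2 fold change of 2.51, and 1.05 without that library. For CYB5R2, ABCG1 and apoeb, the other genes that the rule named, log2 fold changes were 4.36, -1.26 and 1.24 and the groups overlapped. With each library left out in turn it ran from -2.25 to -0.78 for ABCG1, from 0.25 to 2.12 for apoeb and from 2.79 to 6.01 for CYB5R2.

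How much RNA each library held relative to the added spike-in RNA differed between the groups. Spike-in reads were 8.14%, 9.21% and 5.69% of gene and spike-in counts in gallein and 4.53%, 2.24% and 4.15% in controls. With spike-in totals as scaling, all 25 members had a negative fold change, with a median of -1.73, and the median over all 18271 genes was -1.67. In 10 members (40.0%) all gallein samples then lay below all controls, and among all genes 29.9% did. The 3 members that separated by TMM scaling, SCD, ELOVL6 and MSMO1, also did so by upper-quartile, DESeq2, spike-in and library-size scaling. These scalings use the same counts, so they are not independent support. With library size only, 4 members lay below all controls, beside 11.3% of all genes. Relative to the median of all genes the members' median was -0.06 by spike-in scaling and -0.05 by TMM scaling.

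**Figure D4:**
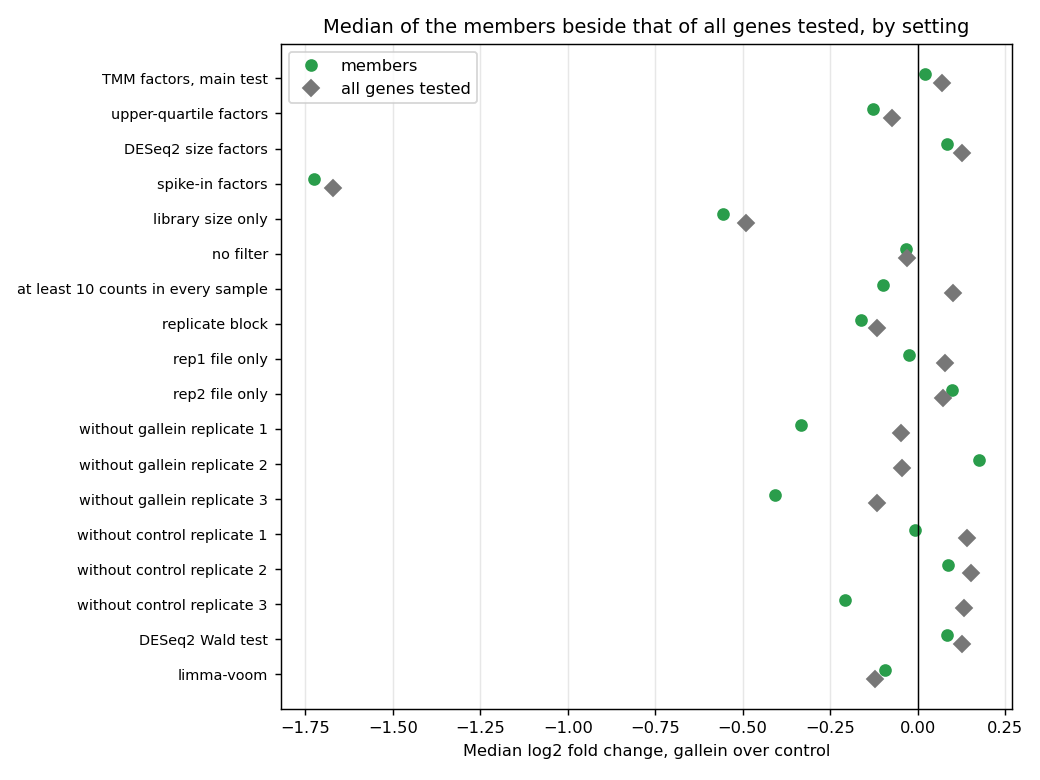
Median log2 fold change of gallein over control under each setting, for the tested members (circles) and for all genes tested (diamonds). The members' median follows that of all genes under every scaling, at -1.73 and -1.67 with spike-in factors, and the widest gap is without control replicate 3 (-0.21 for members and 0.13 for all genes).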

How the data were processed

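The authors deposited raw read counts per gene, 2 files a sample, made with TopHat2 2.0.4 and HTSeq on build Zv9, per the submitters' processing notes. No source used here states the annotation, counting mode or strand, so overlapping and antisense genes cannot be told apart. The 2 files of a sample differed by a chi-square per gene of 1.37 to 1.76 and were summed as 1 replicate. Counts assigned to no gene made up 19.4% to 33.9% of a sample's total and, with the 92 spike-in rows, stayed out of the test. A table of names gave symbols to 20734 of 32469 gene rows. Letter case was ignored in matching names, and a final a or b could be absent from symbols in capitals. No coordinates or sequences were used, and part of the list of genes is not reported here.

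The test of these counts was that of edgeR 4.0.16 (R 4.3.3): TMM factors, filterByExpr (minimum count 10), a robust quasi-likelihood fit on group alone, two-sided, Benjamini-Hochberg adjustment over 18271 genes, and a threshold of 0.05. An SE is the log2 fold change divided by the square root of F, and 95% intervals use the fit's degrees of freedom. DESeq2 1.42.0 and limma 3.58.1 gave alternatives. Sums of CPM were compared by exact permutation tests. The steps were tested on simulated counts, in which 100 genes were set to differ 4-fold between the groups and another 100 to differ 16-fold. At the real dispersion, 0% of the 4-fold genes and 0% of the 16-fold genes were recovered, with 0 false calls. At a low dispersion these shares were 99% and 100%, with 21 false calls among 18136 genes. The absence of a call by edgeR therefore does not show equal levels. The genes set to differ left out those with the fewest counts, and recovery was not split by count. Values in every sample are given for members whose groups did not overlap, the 4 of each role with the smallest p, members with 1 library over 5 times the median of the others, and a set of listed genes. Of the other pathway genes, the 3 of each role with the smallest p are named. LBR, ABCA1 and scdb were added after their values were seen. SC5D and ACACB are also given in every sample, although these rules do not select them. The members and lists were chosen with earlier results of these data known.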

Additional observations from a re-analysis of the deposited data

How the results depend on the processing

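No member was called by edgeR or limma-voom in any alternative. DESeq2 called 93 genes, of which 1 was a member (SQLE). The spread between samples was wide, with a median biological coefficient of variation of 0.846 over all genes, and low counts limit what can be seen of single low genes. Of 19 named members, SCD, ELOVL6, MSMO1, SQLE, FDPS and MVK kept their direction in every alternative in which they were tested. All of these were negative. With spike-in factors all 25 tested members were negative, so no member with a positive fold change could be on this list. MVK was only -0.07 without gallein replicate 2. The medians of all genes, of members and of other pathway genes were -1.67, -1.73 and -1.74 with spike-in factors and -0.49, -0.56 and -0.54 with library size only. The median of all genes was also -0.074 with upper-quartile factors, -0.031 with no filter and -0.12 with limma-voom, where that of the other pathway genes was -0.19. With at least 10 counts in every sample the median was 0.10 over all genes and -0.10 over the 14 members left. Members whose gallein samples lay below all controls numbered 10 of 25 with spike-in factors, where 29.9% of all genes tested did. This alternative was chosen after seeing the data.

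Same-numbered samples showed no clear pairing: their deviations from the group means correlated at 0.07, -0.10 and 0.17. Those of samples with unlike numbers correlated at -0.24 to 0.16. These values, from 3 samples a group, cannot exclude a pairing. With the number as a replicate block 0 genes were called, the median was -0.12 over all genes and -0.16 over other pathway genes, and fold changes turned for ACAT2 (-1.09) and PMVK (-0.16).

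With spike-in factors log2 fold changes turned for ACAT2 (-2.37), PMVK (-0.69), IDI1 (-1.48), EBP (-0.32), SREBF1 (-0.29), srebf2 (-1.07), SCAP (-1.20), ldlra (-1.36), ACLY (-0.93) and ACACA (-0.97). Summed levels turned for the mevalonate arm (-1.64), SREBP regulators (-1.49), uptake (-1.72), fatty acid synthesis (-1.41) and all members (-1.53). With library size only ACAT2 (-0.76), IDI1 (-0.24), srebf2 (-0.19) and ldlra (-0.13) turned, as did the sums of the mevalonate arm (-0.47), SREBP regulators (-0.31), uptake (-0.55), fatty acid synthesis (-0.24) and all members (-0.36). ACAT2 (-0.045) and the uptake sum (-0.073) turned with upper-quartile factors, ACAT2 (-1.22) and PMVK (-0.074) with limma-voom, and the uptake sum (-0.0069) with the first file alone. As a mean of log2(CPM + 1) the mevalonate arm (-0.15), fatty acid synthesis (-0.23) and all members (-0.24) turned. The cause was not tested.

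With each library left out in turn the median ran from -0.12 to 0.15 over all genes, from -0.41 to 0.18 over members and from -0.24 to 0.17 over other pathway genes. Members below all controls numbered 3 to 4, where 8.59% to 15.2% of all genes lay below, and members above them 0 to 2, where 6.33% to 11.3% did. Log2 fold changes ran from -2.28 to 0.68 for ACAT2, -1.59 to 1.21 for PMVK, -1.67 to 0.021 for HSD17B7, -2.60 to 3.00 for EBP, -0.41 to 0.53 for srebf2, -0.048 to 1.29 for SCAP, -1.30 to 0.23 for insig1, -0.34 to 0.96 for ldlra, -0.34 to 0.98 for ACLY and -0.43 to 0.18 for FASN. Sums ran from -0.16 to 0.32 for the mevalonate arm, -0.62 to 0.91 for uptake and -0.0047 to 0.72 for fatty acid synthesis.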
